A study of Danio rerio with 25 samples.

Results

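Chromatin accessibility of the larval zebrafish epicardium, sorted with a *tcf21* reporter, was compared with that of the other sorted heart cells. The libraries were chosen by their labels: 2 libraries of epicardium and 2 of non-epicardium, 4 of the 25 libraries of the study and 4 of its 14 ATAC libraries. All 4 came from hearts of larvae at 5 days post fertilization that carried the transgene tcf21:H2B-Dendra2, a nuclear fluorescent protein driven by *tcf21* sequence, received no treatment and were separated by fluorescence-activated cell sorting. The epicardium group and the non-epicardium group therefore share age, transgene and procedure and differ in the sorted fraction. The remaining libraries of the study are ATAC libraries of larvae with a tbx18:myr-Citrine reporter and of adult epicardium after cryoinjury or sham surgery, and RNA libraries of the larval tcf21 fractions and of adult epicardium. The fraction called non-epicardium is defined by the sort alone, and the labels do not say which cells it held. They also do not say whether replicates came from separate clutches. A pairing of epicardium and non-epicardium libraries by heart is not established. The ATAC p-values rest on the spread between replicates, estimated over all 14 ATAC libraries and not over these 4 alone. That spread may be partly technical.

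The epicardium is the mesothelial sheet that covers the heart muscle. It sends signals such as retinoic acid to the myocardium, and some of its cells undergo an epithelial-to-mesenchymal transition and contribute fibroblasts and mural cells of the coronary vessels. *tcf21* encodes a basic helix-loop-helix transcription factor, and *tbx18*, *wt1a* and *wt1b* encode transcription factors that also mark this layer. In ATAC-seq the transposase Tn5 inserts adapters into open DNA, so that reads pile up at promoters, which lie at transcription starts, and at enhancers, which may lie far from the genes they control and are often used in few cell types.

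The libraries held 941610 and 755606 counts in peaks in epicardium, 2273259 and 913324 counts in non-epicardium, and 2051230 to 6248597 counts in the tbx18 larval fractions. A floor of 3 counts corresponded to 3.35 and 4.51 CPM, the count normalised to library size with TMM factors, in epicardium and to 1.497 and 3.4997 CPM in non-epicardium. The lowest value in the table is 1, so that 1 read and none cannot be told apart, and it was held by 8.34% and 13.5% of peaks in epicardium and by 1.47% and 7.76% in non-epicardium. The chi-square of replicate counts per degree of freedom, about 1 for independent counts, was 3.03 in epicardium and 4.31 in non-epicardium. Even counts outnumbered odd ones (ratio 1.57 and 1.90 in epicardium, 1.25 and 1.75 in non-epicardium). Counts made in pairs would raise the chi-square too, and their part in it was not tested. A fit to halved counts is among the alternatives.

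With TMM scaling, epicardium had similar numbers of more open and less open regions, a balance that depends on the scaling. Of 61883 tested peaks, 8196 (13.2%) differed at an adjusted p under 0.05 by edgeR's quasi-likelihood test with Benjamini-Hochberg adjustment, and such peaks are referred to as called. Of these, 4140 (6.69% of tested peaks) were higher and 4056 (6.55%) lower in epicardium, against 4523 and 3570 with the size factors of DESeq2. The called log2 fold changes had a median of 2.49 among higher peaks and of -2.47 among lower ones, and the smallest were 1.12 and -1.11, so that differences below about that size were not called at this depth. The libraries of both groups did not overlap at 4116 of the 4140 higher and at 4048 of the 4056 lower peaks, against 24.5% of all tested peaks without overlap in the higher direction and 27.1% in the lower (51.6% either way). The count depended on single libraries: 4868 peaks were called without epicardium replicate 1, 4364 without epicardium replicate 2, 2745 without non-epicardium replicate 1, the deepest of the 4, and 7299 without non-epicardium replicate 2.

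The 5 epicardial marker genes carried 44 tested peaks, of which 21 were higher and 0 lower in epicardium, a share of 47.7% against 6.69% of all tested peaks. Leaving out single libraries left between 12 and 17 higher peaks and 0 lower ones, with the fewest without non-epicardium replicate 1. All 5 genes had higher RNA in epicardium and at least 2 higher peaks each. Since *tcf21* sequence drives the sorted reporter, the *tcf21* locus also checks the sort, and reads from any *tcf21* sequence in the transgene would be counted with it in both groups.

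At *tcf21* (ENSDARG00000036869), 7 of 8 peaks were higher. The strongest was a peak at chr23:31642091-31642591, annotated as intron and lying 13176 bases before the nearest transcription start. It is thus upstream of *tcf21*, as is the neighbouring peak, and which transcript holds the intron was not examined. This peak had 157 and 198 CPM in epicardium and 16.5 and 16.3 CPM in non-epicardium (log2 fold change 3.43, SE 0.46, adjusted p = 1.05e-06). A neighbouring peak at chr23:31638220-31638720 had 63.7 and 147 CPM in epicardium, against 7.48 and 13.999 CPM in non-epicardium (log2 fold change 3.38, adjusted p = 3.83e-06). The promoter peak at chr23:31628912-31629412 was weaker, with 25.7 and 36.04 CPM in epicardium and 7.48 and 2.33 CPM in non-epicardium (log2 fold change 2.44, adjusted p = 0.00162). At these 3 peaks both epicardium libraries lay above both non-epicardium libraries, and in epicardium the promoter lay below the distal peaks. The eighth peak, at a transcript end, was not called (log2 fold change 0.998, adjusted p = 0.218). In RNA, *tcf21* had 230.5 ± 122 CPM in epicardium (SD, n = 3) and 2, 0 and 3 counts in the 3 non-epicardium libraries.

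*wt1a* showed the opposite arrangement, with its largest difference at the promoter. The promoter peak at chr25:15117733-15118233 held 77 and 60 counts in epicardium, against 8 and 1 counts in non-epicardium, which is 86.1 and 90.1 CPM in epicardium, against 3.99 and 1.17 CPM in non-epicardium (log2 fold change 4.84, SE 0.54, adjusted p = 5.26e-08). Non-epicardium was thus near the counting floor at this promoter. An intron peak of *wt1a* at chr25:15101403-15101903 had 26.8 and 16.5 CPM in epicardium and 7.98 and 1.17 CPM in non-epicardium and was called with log2 fold change 2.01, but not without epicardium replicate 1 (adjusted p = 0.189) or without non-epicardium replicate 2 (adjusted p = 0.140). At its paralog *wt1b*, 2 of 7 peaks were higher. The *wt1b* intron peak at chr18:45602792-45603292 had 21.2 and 33.04 CPM in epicardium and 1.995 and 2.33 CPM in non-epicardium (log2 fold change 3.64, adjusted p = 0.000614), and the promoter had 20.1 and 30.04 CPM in epicardium and 1.497 and 6.999 CPM in non-epicardium (log2 fold change 2.82, adjusted p = 0.00302). The groups did not overlap at either peak, and the promoter was not called without non-epicardium replicate 1 (adjusted p = 0.166).

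At *tbx18*, 4 of 11 peaks were higher, and its promoter was open in both groups. The promoter peak at chr23:31180809-31181309 had 38.02 and 78.1 CPM in epicardium and 22.4 and 10.499 CPM in non-epicardium (log2 fold change 1.71, adjusted p = 0.00717). It was not called without epicardium replicate 2 (adjusted p = 0.120) or without non-epicardium replicate 2 (adjusted p = 0.0765). An exon peak at chr23:31190801-31191301 had 14.5 and 36.04 CPM in epicardium and 4.99 and 4.67 CPM in non-epicardium (log2 fold change 2.32) and was not called without epicardium replicate 2 (adjusted p = 0.124) or without non-epicardium replicate 1 (adjusted p = 0.0797).

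*aldh1a2*, which encodes the enzyme that makes retinoic acid, had called peaks away from its promoters alone. Of 14 peaks, 5 were higher, the clearest in an intron at chr7:30094819-30095319 with 38.02 and 63.1 CPM in epicardium and 12.97 and 4.67 CPM in non-epicardium (log2 fold change 2.37, adjusted p = 0.00197). No overlap between the groups was seen there. The 2 promoter peaks had log2 fold changes of -0.59 and 0.76 and were not called (adjusted p = 0.605 and 0.450). The intron peak with most counts, at chr7:30065883-30066383, overlapped between groups, with 42.5 and 55.6 CPM in epicardium and 58.9 and 40.8 CPM in non-epicardium. RNA of *aldh1a2* was 455 ± 229 CPM in epicardium and 10.6 ± 5.12 CPM in non-epicardium (SD, n = 3 each; log2 fold change 5.42, adjusted p = 3.84e-06, edgeR).

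**Figure D1:**
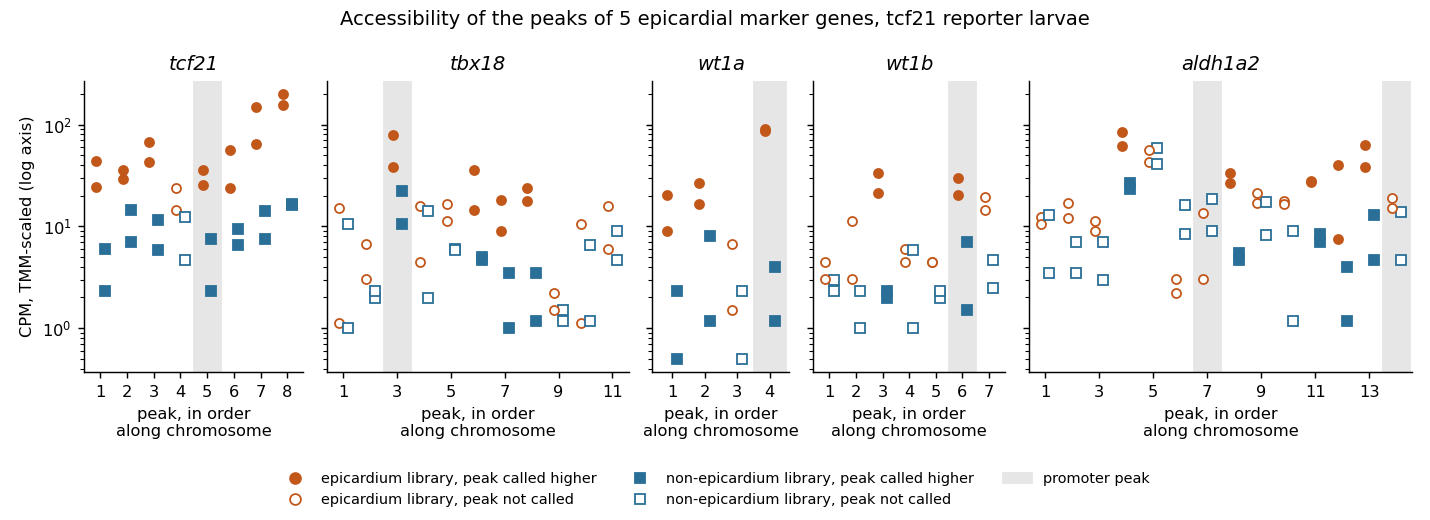
CPM on a log axis for every tested peak of the 5 epicardial marker genes, in order along the chromosome, with 1 point per library. Filled points mark peaks called higher in epicardium (7 of 8 at *tcf21*, 4 of 11 at *tbx18*, 3 of 4 at *wt1a*, 2 of 7 at *wt1b*, 5 of 14 at *aldh1a2*), open points peaks not called, and grey bands promoters. The *wt1a* promoter has the largest log2 fold change, 4.84, and 1 of the 2 *aldh1a2* promoters overlaps between the groups.

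Among markers of other cells, those of erythrocytes had the largest share of called peaks. Of 37 peaks at 13 erythrocyte genes, 28 (75.7%) were lower and 1 higher in epicardium, against 6.55% and 6.69% of all tested peaks. The median log2 fold change of the 37 peaks was -3.42. The lower peaks included at least 1 at each of the 13 genes, and 16 were lower without epicardium replicate 1, 17 without non-epicardium replicate 1 and 21 and 28 without the other libraries. The promoter of *slc4a1a*, the anion exchanger of the red cell membrane, had 3.35 and 1.502 CPM in epicardium, against 132 and 72.3 CPM in non-epicardium (at least 26.02-fold lower, adjusted p = 3.48e-07). A peak near *klf17*, an erythroid Kruppel-like factor in zebrafish, had 4.47 and 1.502 CPM in epicardium, against 139 and 83.99 CPM in non-epicardium (log2 fold change -5.13, SE 0.60, adjusted p = 1.14e-07), and the promoter of *nfe2*, an erythroid transcription factor, had 2.24 and 7.51 CPM in epicardium, against 124 and 53.7 CPM in non-epicardium (log2 fold change -4.29, adjusted p = 3.19e-06). Both non-epicardium libraries were high at these 3 peaks and both epicardium libraries were at or near the floor. The single higher peak lay far from its annotated gene *cahz*, the red cell carbonic anhydrase, and was not called without epicardium replicate 2 (adjusted p = 0.147) or without non-epicardium replicate 1 (adjusted p = 0.334).

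Peaks of the erythrocyte list held 0.0162% and 0.0222% of counts in epicardium, against 0.172% and 0.113% in non-epicardium. In RNA, all 13 tested erythrocyte genes were lower in epicardium; *hbae3*, an embryonic alpha globin, averaged 4.44 ± 2.53 CPM in epicardium and 9832 ± 1679.7 CPM in non-epicardium (SD, n = 3 each), although globin copies can share reads. None of these 13 genes was at 0 counts in all 3 epicardium RNA libraries. In a sorted population, fewer cells of a type and lower accessibility per cell cannot be told apart, here and in every comparison below. The part of red cell genes in the other results was not tested.

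Called peaks of vessel genes were mostly lower as well, whereas of all tested peaks 6.55% were lower and 6.69% higher. At 20 endothelial and endocardial genes, 21 of 109 peaks (19.3%) were lower and 2 higher in epicardium (median log2 fold change -0.72); 11 were lower without epicardium replicate 1, 13 without epicardium replicate 2, 12 without non-epicardium replicate 1 and 17 without non-epicardium replicate 2. RNA of the 20 genes was lower for 8 and higher for 2 in epicardium (median log2 fold change -1.13). Over all genes tested in RNA 7.77% were lower and 5.68% higher, the shares to set beside each list. The list holds *tal1* and *lmo2*, which also act in blood formation. The *tal1* promoter had 2.24 and 3.004 CPM in epicardium, against 73.8 and 46.7 CPM in non-epicardium (at least 15.3-fold lower, adjusted p = 7.84e-06), and a peak 3845 bases from the *lmo2* start had 5.59 and 1.502 CPM in epicardium, against 65.3 and 36.2 CPM in non-epicardium (log2 fold change -3.75, SE 0.66, adjusted p = 8.02e-05). A peak near *nfatc1*, an endocardial transcription factor, had 2.24 and 1.502 CPM in epicardium, against 36.4 and 31.5 CPM in non-epicardium (at least 8.64-fold lower, adjusted p = 8.34e-05), while its RNA was not called (log2 fold change 0.92, adjusted p = 0.348, edgeR). Of the 2 higher peaks, 1 lay between genes near *klf2a*, a flow-responsive factor, with 169 and 281 CPM in epicardium and 58.9 and 65.3 CPM in non-epicardium (log2 fold change 1.86, adjusted p = 0.00106). The libraries of the fractions were fully separated at these 4 peaks. *kdrl*, a VEGF receptor gene of endothelium named here after its values were seen, went opposite ways in the assays: its RNA averaged 125 ± 44.2 CPM in epicardium and 13.8 ± 3.68 CPM in non-epicardium (SD, n = 3 each; log2 fold change 3.17, adjusted p = 0.000336, edgeR), whereas its 1 called peak, in an intron, was lower with 5.59 and 4.51 CPM in epicardium, against 30.4 and 27.998 CPM in non-epicardium (log2 fold change -2.51), a call lost without epicardium replicate 1 (adjusted p = 0.0884) or without epicardium replicate 2 (adjusted p = 0.102) or without non-epicardium replicate 1 (adjusted p = 0.0786).

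Leukocyte peaks were called about as often as all peaks, with 2 of 35 higher and 2 lower (5.71% each, against 6.69% and 6.55%). An intron peak of *ikzf1*, a lymphoid and blood progenitor factor, had 2.24 and 1.502 CPM in epicardium, against 77.8 and 34.997 CPM in non-epicardium (at least 14.4-fold lower, adjusted p = 3.05e-05). A peak near *irf8*, a macrophage factor in other tissues, had 21.2 and 25.5 CPM in epicardium and 2.49 and 6.999 CPM in non-epicardium (log2 fold change 2.48, adjusted p = 0.00788) and was not called without non-epicardium replicate 1 (adjusted p = 0.213). RNA of *irf8* was 465 ± 279 CPM in epicardium and 9.98 ± 4.35 CPM in non-epicardium (SD, n = 3 each; log2 fold change 5.54, adjusted p = 3.94e-06, edgeR). The pan-leukocyte gene *ptprc* was at 4.19 ± 3.15 CPM in epicardium and 6.97 ± 0.889 CPM in non-epicardium (not called, adjusted p = 0.488). Over the 15 genes of the list tested in RNA, 2 were higher and 5 lower in epicardium (median log2 fold change -1.33).

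Peaks of heart muscle genes were called about as often as all peaks. Of 28 peaks at 11 cardiomyocyte genes, 3 were higher and 1 lower in epicardium, shares of 10.7% and 3.57% against 6.69% and 6.55% of all peaks, and without non-epicardium replicate 1 there were 0 of either. Their peaks held 0.0270% and 0.0294% of counts in epicardium, against 0.0226% and 0.0223% in non-epicardium. The 1 lower peak was the promoter of *tnnt2a*, cardiac troponin T, with 4.47 and 1.502 CPM in epicardium and 22.9 and 8.17 CPM in non-epicardium (log2 fold change -2.38), a call lost without epicardium replicate 1 (adjusted p = 0.0628) or without epicardium replicate 2 (adjusted p = 0.199) or without non-epicardium replicate 1 (adjusted p = 0.474). RNA of the same list was lower for 10 of 14 genes, *tnnt2a* among them with 65.7 ± 62.5 CPM in epicardium and 1063 ± 534 CPM in non-epicardium (SD, n = 3 each). Genes of mural cells and fibroblasts had 6 of 94 peaks higher (0 without non-epicardium replicate 1) and 3 lower (0 without epicardium replicate 2), and genes of cells outside the heart had 4 of 25 higher (1 without epicardium replicate 2 or non-epicardium replicate 1) and 1 lower. The 11 cardiac transcription factor genes had 3 of 67 peaks higher and 2 lower (5 higher without epicardium replicate 1, 0 lower without epicardium replicate 2); among them an intron peak of *mef2ca* had 31.3 and 46.6 CPM in epicardium, against 3.49 and 2.33 CPM in non-epicardium (log2 fold change 3.62, adjusted p = 4.85e-05), without overlap.

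**Figure D2:**
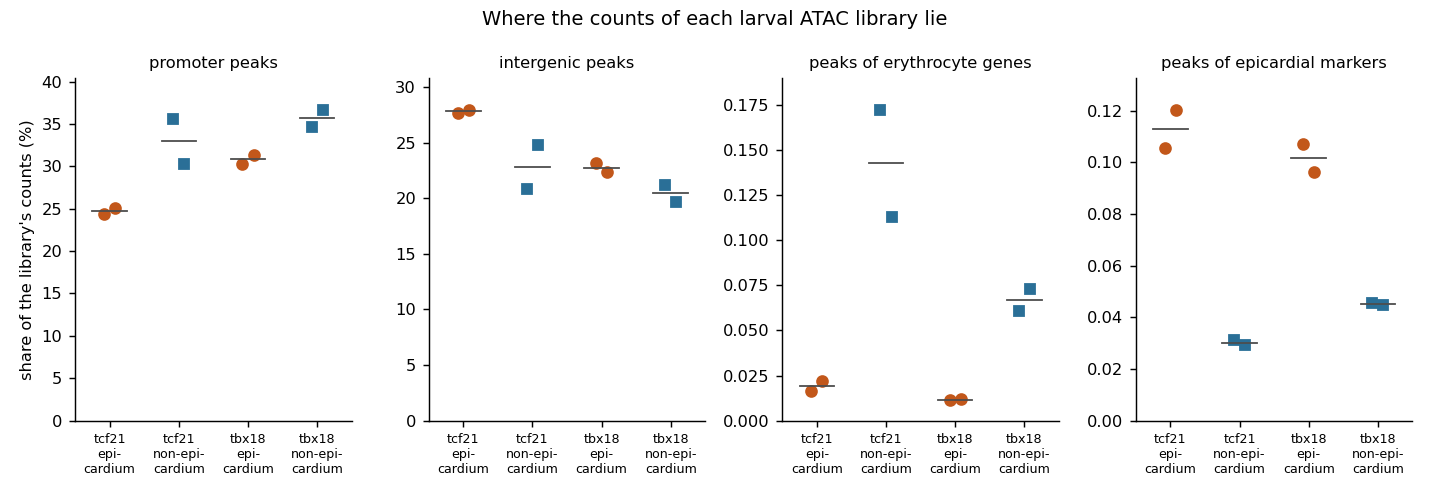
Share of each larval ATAC library's counts (percent, axes from 0) that lies in promoter peaks, intergenic peaks, peaks of erythrocyte genes and peaks of epicardial markers; circles are epicardium libraries, squares non-epicardium libraries, and lines group means of 2. In tcf21 larvae promoter peaks took 24.4% and 25.1% of counts in epicardium, against 35.6% and 30.3% in non-epicardium, and erythrocyte peaks 0.0162% and 0.0222% against 0.172% and 0.113%.

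Called peaks of epithelial junction and mesothelial genes were mostly higher. The shares over all tested peaks were 6.69% higher and 6.55% lower. Of 98 peaks at 11 such genes, 19 (19.4%) were higher and 1 lower in epicardium, with a median log2 fold change of 0.75 against -0.01 over all peaks; 8 were higher without non-epicardium replicate 1 and 13 to 16 without each other library. *bnc2*, a zinc finger gene of mesothelium, contributed 5 higher peaks. The *bnc2* peak of lowest p had 42.5 and 99.1 CPM in epicardium and 12.97 and 4.67 CPM in non-epicardium (log2 fold change 2.84, adjusted p = 0.000134). *cdh2*, the N-cadherin gene, contributed 6 higher peaks with log2 fold changes from 1.34 to 3.12, none of which was called in every fit that left out a library. A peak near the keratin gene *krt18* had 51.4 and 36.04 CPM in epicardium and 3.99 and 2.33 CPM in non-epicardium (log2 fold change 3.68, adjusted p = 5.49e-05), and the 5' UTR peak of *krt94* had 106 and 132 CPM in epicardium and 25.4 and 20.998 CPM in non-epicardium (log2 fold change 2.34, adjusted p = 6.19e-05). Again the libraries of the fractions did not mix at these peaks of *bnc2*, *krt18* and *krt94*. RNA of 9 of the 18 tested genes of the list was higher and that of 2 lower, against 5.68% and 7.77% of all genes.

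In the retinoic acid pathway, called peaks of the synthesis gene were higher and those of receptor genes went both ways. Among all tested peaks 6.69% were higher and 6.55% lower. Of 128 peaks at 22 genes, 15 (11.7%) were higher and 4 (3.13%) lower, and 5 of the 15 were those of *aldh1a2*; 8 were higher without non-epicardium replicate 1, 9 without epicardium replicate 1 and 11 and 13 without the other libraries, and 1 was lower without epicardium replicate 1 or non-epicardium replicate 1. None of the 17 promoter peaks of the list was called. *raraa*, a retinoic acid receptor gene, had 5 higher peaks, led by an intron peak at chr12:10937434-10937934 with 72.7 and 73.6 CPM in epicardium, against 0.998 and 5.83 CPM in non-epicardium (log2 fold change 4.77, SE 0.61, adjusted p = 5.36e-07). Its RNA was 78.9 ± 9.71 CPM in epicardium and 6.28 ± 1.69 CPM in non-epicardium (SD, n = 3 each; log2 fold change 3.64, adjusted p = 0.000641, edgeR). *rxraa*, a partner receptor, had 3 higher peaks, 1 of them with 36.9 and 27.03 CPM in epicardium and 3.49 and 2.33 CPM in non-epicardium (log2 fold change 3.37, adjusted p = 0.000726). On the lower side, a peak 36779 bases from *cyp26c1*, which encodes an enzyme that degrades retinoic acid, had 2.24 and 4.51 CPM in epicardium, against 49.9 and 52.5 CPM in non-epicardium (at least 13.03-fold lower, adjusted p = 4.11e-05). Each of these 3 peaks separated the groups. The other 3 lower peaks belonged to the receptor genes *rarab* (log2 fold change -2.64) and *rxrbb* (-1.999) and to *rbp5*, a retinol binding protein gene (-2.90), and each lost its call in 2 or 3 of the fits that left out a library.

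The Nr2f nuclear receptors, transcription factors of atrial and venous identity in other settings, had 5 of 26 peaks higher (19.2%) and 0 lower, with 2 higher without non-epicardium replicate 1, 3 without non-epicardium replicate 2 and 4 and 5 without the epicardium libraries. For comparison, 6.69% of all tested peaks were higher and 6.55% lower. An intron peak of *nr2f2* at chr18:24028030-24028530 had 97.3 and 191 CPM in epicardium, against 5.99 and 6.999 CPM in non-epicardium (log2 fold change 4.48, SE 0.52, adjusted p = 9.66e-08). A peak near *nr2f1b* had 80.5 and 183 CPM in epicardium and 10.48 and 8.17 CPM in non-epicardium (log2 fold change 3.77, adjusted p = 8.28e-07). Both epicardium libraries were far above both non-epicardium libraries at these peaks, while RNA was not called for *nr2f2* (log2 fold change 0.88, adjusted p = 0.374, edgeR) or *nr2f1b* (log2 fold change 0.37, adjusted p = 0.852, edgeR). Over the 6 Nr2f genes, RNA was higher for 2 and lower for 0 (median log2 fold change 1.52), against 5.68% and 7.77% of all genes.

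Called peaks of extracellular matrix genes were mostly higher, whereas over all tested peaks 6.69% were higher and 6.55% lower. Of 179 peaks at 28 collagen, laminin and other matrix genes, 23 (12.8%) were higher and 5 (2.79%) lower, spread over 16 and 3 genes, and 6 were higher without non-epicardium replicate 1, 14 without non-epicardium replicate 2, 15 without epicardium replicate 2 and 18 without epicardium replicate 1; 1 was lower without epicardium replicate 1 and 3 without epicardium replicate 2 or non-epicardium replicate 1. A peak near *col4a1*, a basement membrane collagen, had 89.5 and 76.6 CPM in epicardium and 4.99 and 8.17 CPM in non-epicardium (log2 fold change 3.74, adjusted p = 1.73e-06), and a peak near the fibril-associated collagen gene *col12a1a* had 73.8 and 129 CPM in epicardium and 16.96 and 2.33 CPM in non-epicardium (log2 fold change 3.17, adjusted p = 2.09e-05). Both peaks separated the groups. RNA of *col4a1* was 1597 ± 501.5 CPM in epicardium and 39.3 ± 16.1 CPM in non-epicardium (SD, n = 3 each). An intron peak of the laminin gene *lama5* went the other way, with 2.24 and 4.51 CPM in epicardium, against 52.9 and 31.5 CPM in non-epicardium (at least 10.7-fold lower, adjusted p = 0.000252), although its RNA was higher in epicardium (log2 fold change 5.37, adjusted p = 2.83e-05, edgeR). *has2*, a hyaluronan synthase gene, had 1 higher and 3 lower peaks and lower RNA (log2 fold change -3.38, adjusted p = 0.0128, edgeR).

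Among signalling and transition genes the calls of peaks were split. RNA was higher for 7 of 35 BMP and TGF-beta genes and lower for 0, against 5.68% and 7.77% of all genes tested in RNA. It was higher for 5 of 13 regulators of epithelial-to-mesenchymal transition and lower for 0. BMP and TGF-beta genes had 21 of 244 peaks higher (8.61%, against 6.69% of all peaks) and 7 lower (2.87%, against 6.55%), with 6 higher without non-epicardium replicate 1, 9 without epicardium replicate 2 and 14 and 16 without the other libraries. Of lower peaks 0 were called without non-epicardium replicate 1, 1 without epicardium replicate 1, 2 without epicardium replicate 2 and 8 without non-epicardium replicate 2. Near the ligand gene *tgfb2* a peak had 98.4 and 107 CPM in epicardium and 10.97 and 4.67 CPM in non-epicardium (log2 fold change 3.57, adjusted p = 6.29e-07), and an exon peak annotated to the receptor gene *tgfbr2b* had 60.4 and 57.1 CPM in epicardium and 2.49 and 4.67 CPM in non-epicardium (log2 fold change 4.15, adjusted p = 5.82e-06). The groups did not overlap at either. Both genes also had called lower peaks, with log2 fold changes of -2.78 at *tgfb2* and of -2.34 and -2.16 at *tgfbr2b*. The lower peaks of lowest p in the list belonged to *bmp6* (log2 fold change -2.92), *smad7* (-3.18) and *tgfbr2a* (-3.71). Of these genes, *bmp6* and *tgfbr2a* had higher peaks too. Regulators of epithelial-to-mesenchymal transition had 6 of 83 peaks higher (1 without non-epicardium replicate 1) and 4 lower. A peak at a transcript end near *snai1b* had 98.4 and 177 CPM in epicardium and 15.5 and 12.8 CPM in non-epicardium (log2 fold change 3.25, adjusted p = 1.58e-06), and was called in every fit that left out 1 library. The *snai2* promoter had 35.8 and 51.1 CPM in epicardium and 10.48 and 11.7 CPM in non-epicardium (log2 fold change 1.97, adjusted p = 0.00247) and was not called without non-epicardium replicate 1 (adjusted p = 0.0569).

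*zeb2a*, another transition regulator, carried 4 higher and 4 lower peaks within 1 locus, all of the lower peaks of its list. The lowest p was that of an intron peak with 16.8 and 1.502 CPM in epicardium, against 172 and 100.3 CPM in non-epicardium (log2 fold change -3.79, adjusted p = 4.94e-06). The higher peak with the largest change had 20.1 and 46.6 CPM in epicardium and 6.98 and 2.33 CPM in non-epicardium (log2 fold change 2.65) and was not called without epicardium replicate 2 (adjusted p = 0.150) or without non-epicardium replicate 1 (adjusted p = 0.0505) or without non-epicardium replicate 2 (adjusted p = 0.0870). Each of the 4 higher peaks lost its call in 2 or 3 such fits, and 1 of the 4 lower ones did so in 2. RNA of *zeb2a* was not called (log2 fold change -0.82, adjusted p = 0.230, edgeR), and its counts summed over 32 peaks had a log2 fold change of -0.51 (adjusted p = 0.149).

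Hippo pathway genes had 6 of 97 peaks higher (6.19%) and 3 lower (3.09%), and AP-1 genes 7 of 67 higher (10.4%) and 5 lower (7.46%), against 6.69% and 6.55% of all peaks. At Hippo genes 3 to 4 were higher without single libraries, and 1 was lower without non-epicardium replicate 1. At AP-1 genes 3 were higher and 0 lower without non-epicardium replicate 1, 4 and 1 without epicardium replicate 2, 4 and 4 without non-epicardium replicate 2, and 7 and 4 without epicardium replicate 1. Opposite calls occurred within genes here too: *jun*, an AP-1 subunit gene, had a distal peak with 48.1 and 120.1 CPM in epicardium, against 12.5 and 3.4997 CPM in non-epicardium (log2 fold change 3.20, adjusted p = 3.65e-05) and another with 15.7 and 4.51 CPM in epicardium and 56.4 and 41.996 CPM in non-epicardium (log2 fold change -2.22), the second not called without epicardium replicate 2 (adjusted p = 0.0944) or without non-epicardium replicate 1 (adjusted p = 0.0515). Near *cyr61*, a target of the Hippo effectors, a peak had 7.83 and 15.02 CPM in epicardium, against 77.8 and 73.5 CPM in non-epicardium (log2 fold change -2.77, adjusted p = 7.43e-05). At both named *jun* peaks and at the *cyr61* peak the groups did not overlap. RNA was higher for 6 of 22 tested Hippo genes and 6 of 13 AP-1 genes, and lower for 0 of either list. Over all genes tested in RNA these shares were 5.68% and 7.77%.

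All called peaks of cell cycle genes were lower with tcf21. With tbx18 1 was higher and 1 lower (median log2 fold change -0.51). edgeR's interaction test, of a difference in effect between the reporters, called 0 of the 26 peaks. The shares of all tested peaks with tcf21 were 6.55% lower and 6.69% higher. Of 26 peaks at 17 genes, 8 (30.8%) were lower and 0 higher in epicardium (median log2 fold change -1.10), with 7 of the 18 promoter peaks of the list lower, against 10.1% of all promoter peaks. Without epicardium replicate 2 or non-epicardium replicate 1 the count was 2, and without epicardium replicate 1 it was 5. The exception outside promoters lay 16256 bases from *cdk1*, the mitotic kinase gene, with 1.12 and 4.51 CPM in epicardium, against 68.3 and 41.996 CPM in non-epicardium (at least 14.04-fold lower, adjusted p = 1.67e-05). The promoter of *mki67*, a proliferation marker, had 16.8 and 25.5 CPM in epicardium and 92.8 and 43.2 CPM in non-epicardium (log2 fold change -1.73) and was not called without epicardium replicate 1 (adjusted p = 0.126) or without non-epicardium replicate 1 (adjusted p = 0.276). RNA was lower for 16 of 19 tested genes of the list, with *cdk1* at 12.9 ± 1.80 CPM in epicardium and 749.96 ± 165 CPM in non-epicardium (SD, n = 3 each). Housekeeping genes had 2 of 44 peaks higher and 3 lower (0 and 0 without non-epicardium replicate 1, 2 and 6 without non-epicardium replicate 2).

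**Figure D3:**
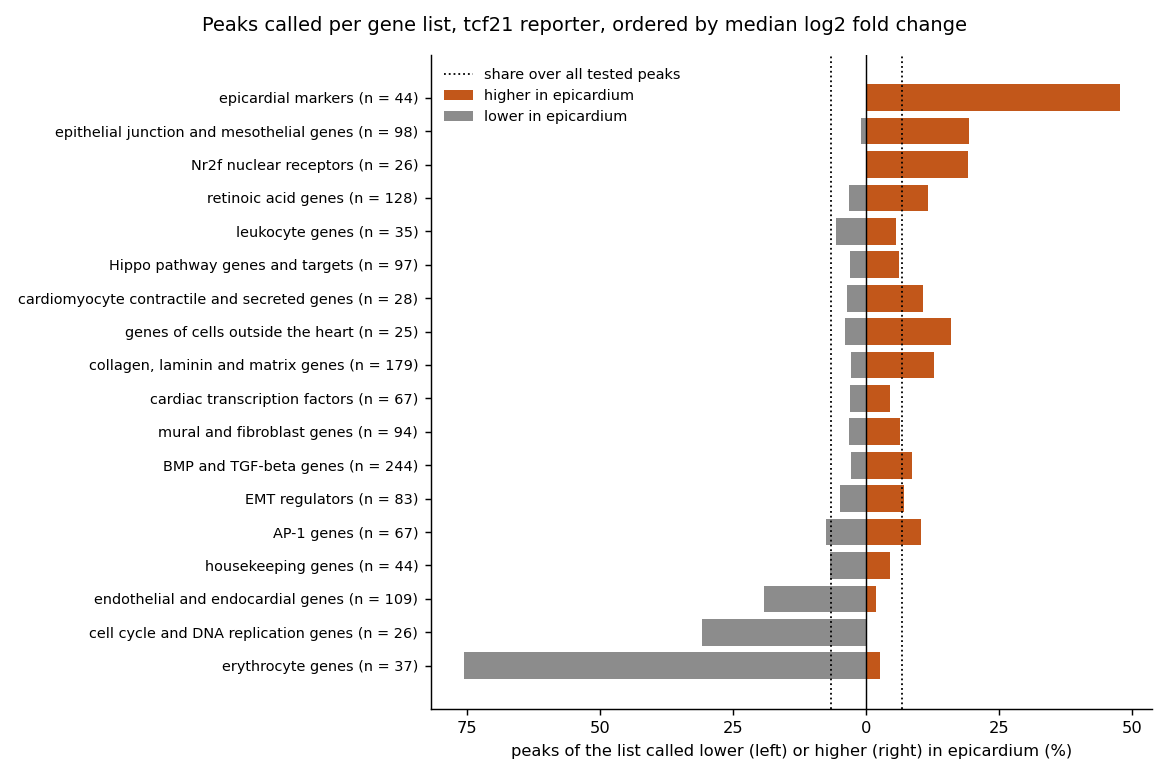
Share of the tested peaks of each gene list that was called lower (grey, to the left) or higher (orange, to the right) in epicardium, in percent, with the number of peaks in brackets and lists ordered by median log2 fold change. Dotted lines mark the shares over all tested peaks, 6.69% higher and 6.55% lower. Epicardial markers lead with 47.7% higher, and erythrocyte (75.7%), cell cycle (30.8%) and endothelial genes (19.3%) lie at the lower end.

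The named peaks with the largest differences lay mostly at genes outside these lists. In each direction, the naming rule took the 5 promoter peaks and the 5 other peaks with the largest fold change. They had to be called, without overlap and with a mean of 20 CPM or more in the more open group. Only peaks annotated to a gene without a clone or placeholder name entered, 1 per gene. The most negative called log2 fold change, -6.83, was not among them. Each of these 20 peaks was also called in every fit that left out 1 library. Among promoters taken as higher, that of *wt1a* came first, followed by *crb2b*, a gene of the Crumbs polarity complex, and *adcy1a*, an adenylate cyclase gene. After these came *musk*, a receptor kinase gene of the neuromuscular junction, and *phex*, an endopeptidase gene. The *crb2b* promoter had 49.2 and 88.6 CPM in epicardium, against 1.995 and 4.67 CPM in non-epicardium (log2 fold change 4.53, adjusted p = 1.07e-06). The *musk* promoter had 38.02 and 39.05 CPM in epicardium, against 1.995 and 2.33 CPM in non-epicardium (log2 fold change 4.16, adjusted p = 1.47e-05). RNA was also higher for *crb2b* (log2 fold change 4.34), *musk* (3.63) and *phex* (2.78), and not called for *adcy1a* (1.49, adjusted p = 0.424, edgeR).

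Outside promoters, the peaks that the naming rule took as higher in epicardium were almost closed in non-epicardium. The intergenic peak at chr11:10115547-10116047, 113999 bases from the start of *nlgn1*, a synaptic adhesion gene, held 66 and 82 counts in epicardium, against 1 and 2 counts in non-epicardium (at least 39.4-fold higher). An intron peak of *lrp2a*, which encodes the endocytic receptor megalin, had 43.6 and 111 CPM in epicardium, against 0.499 and 2.33 CPM in non-epicardium (at least 30.97-fold higher, adjusted p = 3.87e-07), with higher RNA (log2 fold change 3.74). A peak between genes near *tmsb2*, a thymosin beta gene, had 53.7 and 93.1 CPM in epicardium, against 0.499 and 2.33 CPM in non-epicardium (at least 29.4-fold higher, adjusted p = 1.12e-07). Peaks annotated to *plpp3* and *paqr6* were at least 16.998-fold and at least 13.95-fold higher. The annotated gene is the one with the nearest start, and no measurement here ties a distal peak to it.

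In the lower direction the promoters were those of *rabgap1l*, *emp2*, *nmt1b*, *slc25a18* and *slc4a1a*. The promoter of *rabgap1l*, a Rab GTPase regulator gene, had 2.24 and 3.004 CPM in epicardium, against 286 and 138 CPM in non-epicardium (at least 53.9-fold lower, adjusted p = 7.89e-08). That of *emp2*, an epithelial membrane protein gene, had 1.12 and 3.004 CPM in epicardium, against 179.6 and 100.3 CPM in non-epicardium (at least 35.6-fold lower, adjusted p = 5.19e-08). Both were at the floor in epicardium. RNA of *rabgap1l* was lower (log2 fold change -4.06, adjusted p = 0.000204), whereas that of *emp2* was not called (-0.21, adjusted p = 0.815, edgeR). Outside promoters an intron peak of *bcas2*, a splicing factor gene, had 2.24 and 1.502 CPM in epicardium, against 178 and 115 CPM in non-epicardium (at least 37.3-fold lower, adjusted p = 2.43e-08), followed by intron peaks of *ubtd1b*, *tbc1d22b*, *ttc13* and *adcy3b*, each at 1 count in both epicardium libraries and at least 20.5-fold, 19.7-fold, 19.04-fold and 18.02-fold lower.

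Calls also accumulated at some genes, against shares of 6.69% higher and 6.55% lower over all tested peaks. Genes with clone or placeholder names were left out of this ranking in either direction. The genes with most higher peaks were *ebf3a* (9 of 22, with 1 lower), *bhlhe40* (7 of 16), *celf2* (7 of 31, with 2 lower), *dennd1b* (7 of 14) and *tcf21* (7 of 8). *ebf3a* encodes a transcription factor of the EBF family, and *bhlhe40* a helix-loop-helix repressor. The *bhlhe40* intron peak of lowest p had 31.3 and 33.04 CPM in epicardium, against 1.497 and 2.33 CPM in non-epicardium (at least 12.9-fold higher, adjusted p = 8.90e-05). RNA was higher for *ebf3a* (log2 fold change 5.36), *bhlhe40* (2.53) and *celf2* (3.25), and not called for *dennd1b* (1.19, adjusted p = 0.503, edgeR).

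The genes with the largest numbers of lower peaks were *zfpm1* (8 of 24), *AKAP13* (7 of 22), *bahcc1b* (7 of 34) and *gse1* (7 of 36, with 4 higher). They were followed by *cbfa2t3* (6 of 18), *mef2aa* (6 of 23, with 1 higher) and *sesn1* (6 of 11). Counts summed over all peaks of a gene were not called for *zfpm1*, *bahcc1b* and *gse1* (adjusted p = 0.179, 0.0507 and 0.289, edgeR). *zfpm1* encodes a cofactor of GATA factors and *cbfa2t3* a corepressor of blood regulators. An intron peak of *bahcc1b* had 6.71 and 6.01 CPM in epicardium, against 289 and 109.7 CPM in non-epicardium (log2 fold change -4.97, SE 0.60, adjusted p = 1.68e-07), and a peak near *cbfa2t3* had 4.47 and 3.004 CPM in epicardium, against 169.6 and 100.3 CPM in non-epicardium (log2 fold change -5.13, adjusted p = 1.24e-07). The groups did not overlap at either. RNA was lower for *cbfa2t3* (log2 fold change -2.45) and *mef2aa* (-1.75) and was not called for the other 5 genes, with log2 fold changes of 1.43 for *zfpm1*, 0.16 for *bahcc1b*, -0.73 for *AKAP13* and *gse1* and -1.26 for *sesn1* (adjusted p from 0.134 to 0.844, edgeR). Called neighbours tended to share direction: of 2865 higher peaks with a next peak within 20 kb, 18.1% were followed by a higher one, against 6.61% of all peaks, and of 3051 lower peaks 19.9% by a lower one, against 7.16%.

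When counts were summed over all peaks of a gene, 4145 of 21976 genes (18.9%) were called, 2551 higher (11.6%) and 1594 lower (7.25%). With library factors taken from the peaks in place of the gene sums, 4167 (19.0%) were called, 1762 higher (8.02%) and 2405 lower (10.9%). Which direction prevailed was therefore set by the scaling, under which the median over genes was 0.14 and -0.09 on the log2 scale. Without non-epicardium replicate 1 the count was 1422, without epicardium replicate 1 it was 2616 and without epicardium replicate 2 it was 2433. Genes with the lowest p-values are given among those whose name is not a clone or placeholder name. Among higher genes these were *lbx1a*, a homeobox gene, *wt1a*, *gbe1a*, a glycogen branching enzyme gene, *nell2b* and *igsf11*. *lbx1a* summed to 177 and 299 CPM over 2 peaks in epicardium, against 8.62 and 15.1 CPM in non-epicardium (log2 fold change 4.44, SE 0.36, adjusted p = 1.16e-07). *gbe1a* summed to 149 and 221 CPM in epicardium, against 5.60 and 6.97 CPM in non-epicardium (log2 fold change 4.92, SE 0.43). Among lower genes they were *myb*, *klf17*, *gfi1b* and *hdr*, blood genes in zebrafish, and *pdzk1ip1*. *myb*, a blood stem cell factor, summed to 36.6 and 15.8 CPM in epicardium, against 420.5 and 224 CPM in non-epicardium (log2 fold change -3.59, SE 0.35, adjusted p = 6.33e-07). At these genes the groups did not overlap.

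Across genomic features, among peaks called at an adjusted p under 0.05, gains lay more often far from transcription starts and losses more often at them. The part about losses depended on the threshold. Among peaks called against a minimum log2 fold change of 1, promoters made up 17.0% of the lower ones, below the 20.6% of tested peaks. It also depended on non-epicardium replicate 1, as given below. Promoter peaks, whose annotated distances ran from 1000 bases before to 952 bases after a start, made up 20.6% of tested peaks, 7.80% of the higher and 31.9% of the lower ones. Of 12756 promoter peaks, 1617 (12.7%) were called, 323 higher (2.53%) and 1294 lower (10.1%). Of 49127 peaks outside promoters, 6579 (13.4%) were called, 3817 higher (7.77%) and 2762 lower (5.62%). Over promoter peaks the log2 fold change had a median of -0.50, against 0.11 over intron peaks, 0.24 over intergenic peaks and -0.49 over 5' UTR peaks. With distance the balance turned steadily: within 1 kb of a start 2.65% of peaks were higher and 9.49% lower, at 5 to 20 kb 7.60% and 5.73%, and beyond 50 kb 10.8% and 4.18%. The median distance to a start was 16204.5 bases for higher peaks and 4176 bases for lower ones.

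**Figure D4:**
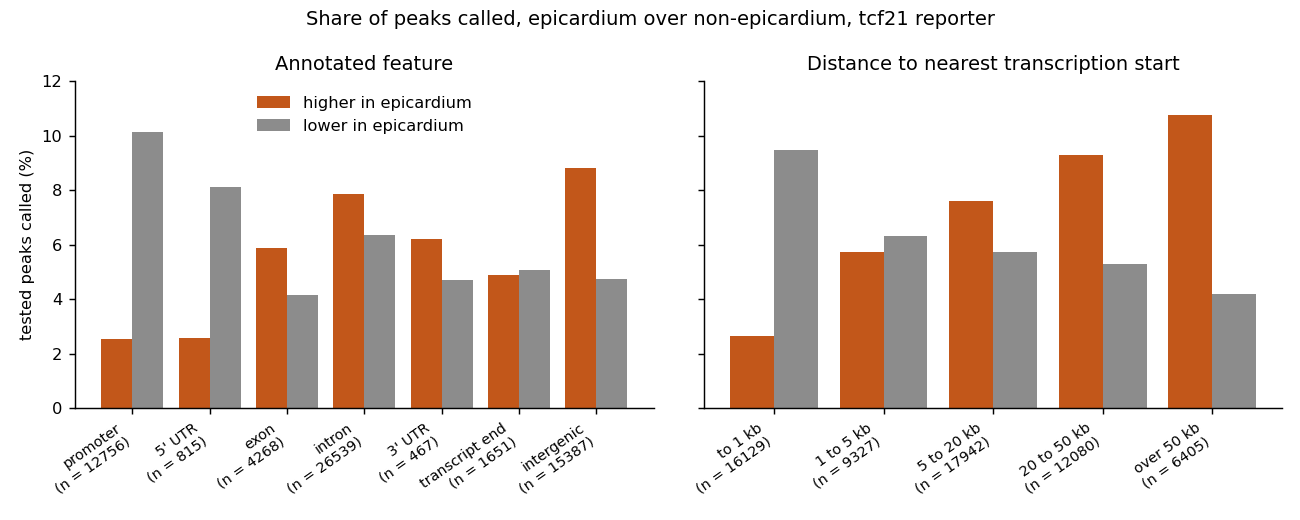
Share of tested peaks called higher (orange) or lower (grey) in epicardium, in percent from 0, by annotated feature (left) and by distance to the nearest transcription start (right), with the number of tested peaks in brackets. Lower calls exceed higher ones at promoters (10.1% and 2.53%) and within 1 kb (9.49% and 2.65%), and higher calls exceed lower ones between genes (8.80% and 4.72%) and beyond 50 kb (10.8% and 4.18%).

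The same shift showed in the libraries as a whole. Promoter peaks took 24.4% and 25.1% of counts in epicardium, against 35.6% and 30.3% in non-epicardium, and intergenic peaks took 27.7% and 27.97% in epicardium, against 20.8% and 24.8% in non-epicardium. The groups did not overlap in either share, and the difference gave a two-sided exact permutation p of 0.333, the smallest that 2 libraries against 2 allow. The 2 non-epicardium libraries differed from each other too, and without non-epicardium replicate 1 the promoter share of lower peaks was 18.8% and the median of promoters -0.25. In the tbx18 larvae promoter peaks took 30.3% and 31.4% of counts in epicardium, against 34.7% and 36.7% in non-epicardium. The cause of the difference in promoter share, in cells or in the libraries, was not tested.

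How many promoters were called lower depended on what they were measured against. With counts summed over the promoter peaks of each gene and scaled as all peaks, 2219 of 11704 genes (19.0%) were called, 410 higher (3.5%) and 1809 lower (15.5%), with a median log2 fold change of -0.52. With library factors computed over promoters alone, 1430 (12.2%) were called, 946 higher (8.08%) and 484 lower (4.14%), with a median of 0.05. The excess of lower promoters is thus relative to other peaks and does not show which of them changed. Peaks outside promoters summed per gene gave 2899 of 17085 genes called (17.0%), 1656 higher (9.69%) and 1243 lower (7.28%). A gene's promoter and its other peaks moved together only in part: of 292 genes with a higher promoter 31.5% had higher other peaks, against 10.2% of the 6816 genes with both, and of 1013 genes with a lower promoter 20.9% had lower other peaks, against 9.73%.

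Depth of signal and base composition moved with the calls. Among the fifth of peaks with most counts, 14.6% of those outside promoters were higher and 11.6% lower, and 2.92% of promoters were higher and 17.3% lower, whereas among the fifth with fewest counts 2.35% and 1.84% outside promoters and 1.34% and 1.52% of promoters were called. Lower promoters exceeded higher ones in each of the 5 bins of abundance and each of the 5 bins of GC content. Higher peaks were richer in GC, with a median of 44.3% against 42.7% in lower peaks and in all peaks, and the share of higher peaks grew from 3.11% in the bin of lowest GC to 9.55% in that of highest GC.

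RNA of the same reporter line, measured in 3 libraries of each fraction, was more often higher the more higher peaks a gene had. Of 20745 tested genes, 2789 (13.4%) were called in RNA, 1178 higher (5.68%) and 1611 lower (7.77%). Of the 15851 genes with both measurements, 6.95% had higher and 8.55% lower RNA in epicardium. Among genes with 1, 2 and at least 3 higher peaks and no lower one, RNA was higher for 18.5%, 33.8% and 57.0%, and the median RNA log2 fold change was 1.30, 1.71 and 2.73. Among genes with 1, 2 and at least 3 lower peaks and no higher one, RNA was lower for 16.9%, 27.4% and 32.1%, with medians of -0.47, -0.71 and -1.08. Genes without a called peak had higher RNA in 4.52% and lower RNA in 7.54% of cases. In all, 437 genes with only higher peaks had higher RNA and 438 with only lower peaks had lower RNA; without non-epicardium ATAC replicate 1 these counts were 268 and 176, without the non-epicardium RNA library numbered 3 they were 280 and 291, and without epicardium ATAC replicate 1 or 2 the second was 252 or 241. Genes with more peaks have more chances of a called one, and the genes are not independent replicates. The larval RNA columns are numbered 2 to 4 and the sample titles 1 to 3, so that no column is tied to a single titled sample.

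**Figure D5:**
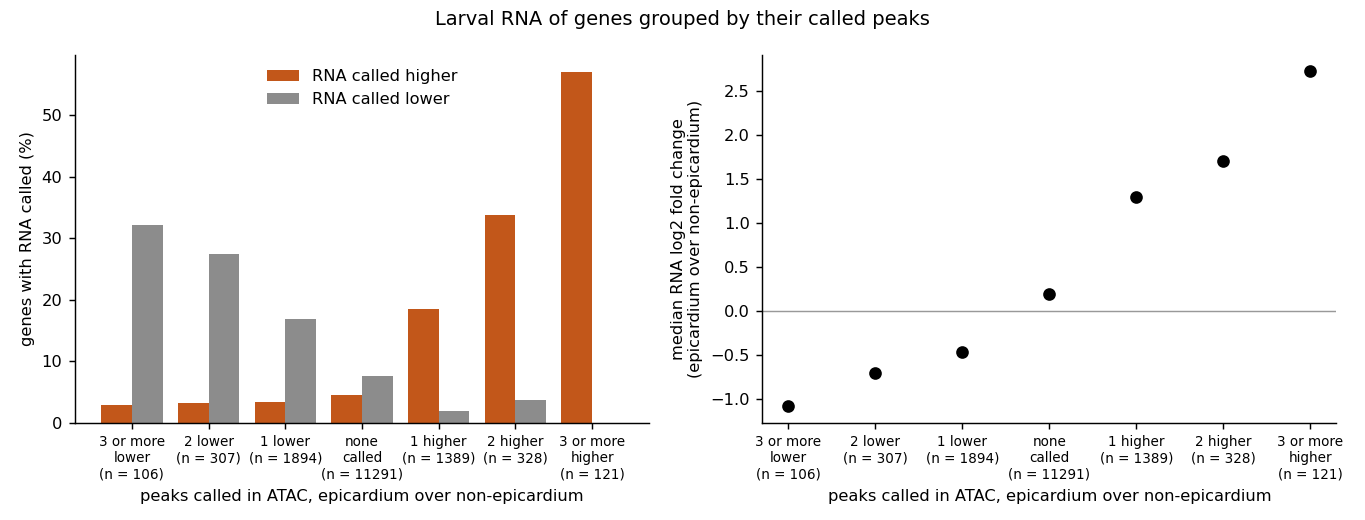
Share of genes with RNA called higher (orange) or lower (grey) in epicardium, in percent (left), and median RNA log2 fold change (right), for genes grouped by the number of called ATAC peaks in 1 direction, with the number of genes in brackets. Higher RNA reached 57.0% of genes with at least 3 higher peaks, and lower RNA 32.1% of genes with at least 3 lower peaks.

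The same relation was set out by the position of the peak. Of genes with a higher promoter peak, 44.5% had higher RNA (median log2 fold change 2.29), and of those with higher peaks outside promoters alone 20.5% (1.33). Of genes with a lower promoter peak, 24.96% had lower RNA (median -0.88), and of those with lower peaks outside promoters alone 12.6% (-0.06). Across peaks and their annotated genes, Spearman's rho between the log2 fold changes of accessibility and RNA was 0.403 over 11530 promoter peaks, 0.181 over 13469 peaks at 5 to 20 kb and 0.124 over 4404 peaks beyond 50 kb; these are descriptions across peaks, several of which share a gene. Of higher peaks beyond 50 kb, 26.5% had an annotated gene with higher RNA, against 17.8% of all peaks at that distance, and of lower peaks 5.21% had one with lower RNA, against 4.22%. The median RNA log2 fold change beyond 50 kb was positive throughout, at 1.41 for genes of higher peaks, 0.65 for genes of lower peaks and 1.09 over all peaks.

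The tbx18 reporter marks the epicardium with a different transgene, and its larval libraries form a set of their own; effects of reporter and of batch cannot be told apart. With that reporter 8522 peaks (13.8%) were higher and 8098 (13.1%) lower in epicardium. Calls with tbx18 were themselves rarer at promoters, with 3.57% of promoter peaks higher and 6.62% lower, against 16.7% and 15.3% of intron peaks and 17.9% and 13.8% of intergenic peaks. Of higher intron peaks 72.2% and of higher intergenic peaks 70.9% were also higher with tbx18, against 48.0% of higher promoter peaks. Of lower intron peaks 63.7% and of lower intergenic peaks 61.8% were also lower, against 18.5% of lower promoter peaks. The shared promoters made up 34.1% of the promoter peaks higher and 28.3% of those lower with tbx18, the shared intron peaks 33.9% and 26.4% of the intron peaks, and the shared intergenic peaks 34.9% and 21.1% of the intergenic peaks. The median tbx18 log2 fold change of the promoters lower with tcf21 was -0.58. The effect itself differed between reporters by the interaction test at 680 peaks in the direction of a higher log2 fold change with tcf21 (1.1%) and at 253 in the other (0.409%). The 933 peaks in all became 54 without epicardium replicate 1, 99 without non-epicardium replicate 1 and 561 without epicardium replicate 2. Of the 1294 lower promoters 18 had a more negative effect with tcf21 by that test. At the *wt1a* promoter the log2 fold change was 4.84 with tcf21 and 5.16 with tbx18, at the distal *tcf21* peak 3.43 and 3.996, and the interaction test called neither difference (adjusted p = 0.876 and 0.691, edgeR). It called 1 of the 44 marker peaks, the intergenic *aldh1a2* peak at chr7:30051664-30052164, with log2 fold changes of 1.51 with tcf21 and -0.59 with tbx18 (adjusted p = 0.0375).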

How the data were processed

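Sorted larval heart cells were tagmented with Tn5 and amplified by PCR with Nextera XT adapters, per the labels' protocols. The deposited ATAC table holds raw counts in 61954 peaks, 1 set for all 14 libraries, 94.95% of them of 1 common width. The authors also deposited FPKM values, here a rescaling by library total, which were not used. The deposited annotation gives GC content as a fraction, and the distance to the nearest transcription start, treated as a signed score, per the file headers. The deposited RNA table holds counts per gene in 11 libraries and, as its only other column used for checks, gene length in bases per the file headers. Bowtie 1.2.3, SAMtools 1.10, MACS2 2.2.7.1, HOMER, DiffBind 3.0.13, STAR 2.7.3a, featureCounts, edgeR 3.32.1 and the build GRCz10 are named in the submitters' processing notes, without roles, and coordinates are as deposited.

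Counts were fitted with edgeR 4.0.16 in R 4.3.3 (filterByExpr with a minimum count of 10 and a total of 15, TMM scaling, quasi-likelihood test, Benjamini-Hochberg over all peaks or genes), with all ATAC libraries in 1 model and 1 mean per group, and all RNA libraries in another. Adjusted p under 0.05 was called. The SE is the log2 fold change over the square root of F. Where all libraries of a group held at most 3 counts, the fold is a lower bound against that floor per library; intervals and floors cover counting error only. The fits were tested on simulated counts with known changes in a small part of the peaks, equal group means elsewhere and a fixed spread. That checks the code and does not cover a shift of many peaks or the spread between these replicates. Shares of library counts were compared by exact permutation (scipy 1.17.1).

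The comparison, gene lists and tests were chosen with earlier results of these data known. Named peaks are the promoter and other peak with most counts at each epicardial marker, the largest changes, the genes with most called peaks, up to 3 called peaks per list and direction with the lowest p, and the genes with the lowest p by summed counts; the second and later *tcf21*, *wt1a*, *aldh1a2*, *tbx18* and *zeb2a* peaks, the *jun* pair and *kdrl* were added after their values were seen. Clone and placeholder names were left out of the largest changes, the genes with most called peaks and the genes with the lowest p. The largest changes took 1 peak per gene. Of the 4 libraries, same-numbered replicates deviated together with a correlation of 0.0520 over peaks, and with 2 numbers pairing is not established. Alternatives were other scalings (DESeq2 1.42.0 size factors, total count), the DESeq2 Wald test, no filter, the tcf21 libraries alone, a minimum log2 fold change of 1, counts halved, GC or abundance trends removed, a replicate block, and each library left out. RNA libraries left out and the scalings of gene and promoter sums were chosen after seeing the data. Motif shares were not run, since no genome of the build was used here.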

Additional observations from a re-analysis of the deposited data

Results flagged for a closer look

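The epicardium effect differed between the tcf21 and tbx18 reporters, by edgeR's interaction test, at 5 of the 115 peaks named by rule and at 1 further marker peak. Over all tested peaks the effect was higher with tcf21 at 1.1% and lower at 0.409%. Most of the 115 were named for their calls with tcf21, so their share is not that of unselected peaks. Reporter and batch cannot be told apart. The 5' UTR peak of the keratin gene *krt94* had log2 fold changes of 2.34 with tcf21 and 0.28 with tbx18, a difference of 2.05 (adjusted p = 0.0382). The intergenic *aldh1a2* peak at chr7:30051664-30052164 differed by 2.10 (adjusted p = 0.0375). The other 4 had more negative effects with tcf21. At *gse1* the log2 fold changes were -5.56 with tcf21 and -2.01 with tbx18, a difference of -3.55 (adjusted p = 0.0130). At *zfpm1* they were -2.93 and 0.28, a difference of -3.20 (adjusted p = 0.0163). At *rarab*, a retinoic acid receptor gene, they were -2.64 and 0.52, a difference of -3.15 (adjusted p = 0.0380). At *actb2*, a beta actin gene on the housekeeping list, they were -1.90 and 0.35, a difference of -2.25 (adjusted p = 0.0358). Most calls of the interaction test over all peaks were lost without epicardium replicate 1 or non-epicardium replicate 1, as given above. Whether these named peaks kept theirs is not given here. The tcf21 call itself was lost at the *rarab*, *actb2* and *aldh1a2* peaks in 2 of the fits that left out a library. At the *krt94*, *zfpm1* and *gse1* peaks it was lost in 0. With 2 libraries in each group, no library was tested as standing apart within its group.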

How the results depend on the processing

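The count of called peaks, 8196, ranged from 2745 to 7299 when single libraries were left out (higher 1594 to 3176, lower 1151 to 4128), and was 3050 with a minimum log2 fold change of 1 (1633 higher, 1417 lower). Under the other scalings, tests and trends it lay between 6328, with the tcf21 libraries alone, and 8380. The DESeq2 Wald test called 7745 peaks, and gave no adjusted p for 4800. With the replicate block, 8190 peaks were called (4095 higher and 4095 lower), and lower peaks numbered 5 at mural and fibroblast genes (3 without the block) and 7 at transition regulators (4 without it). With block and GC correction these were 5 and 7 too, with 4 higher peaks at endothelial genes (2 without) and 2 lower at junction genes (1 without). Higher peaks were 7.01% promoters with the GC trend removed, 9.53% with the abundance trend removed, 6.31% with the tcf21 libraries alone, 4.78% with the minimum fold and 6.69% to 7.59% with single libraries left out. Lower peaks were 29.5% promoters with DESeq2 size factors, 28.7% with the abundance trend removed, 29.8% with the tcf21 libraries alone, 17.0% with the minimum fold, 33.6% with total counts, 33.5% with the replicate block, 33.7% with block and GC correction, and 18.8% to 35.5% without single libraries. The count of peaks whose effect differs between reporters was 933, 581 with counts halved, 86 with the minimum fold, and 54 to 800 without single libraries; with the tcf21 libraries alone it could not be fitted. Genes called by summed counts numbered 682 (439 higher, 243 lower) with the minimum fold, 1400 higher with the tcf21 libraries alone, 2405 lower with the scaling of the peaks, and 1422 to 4531 (917 to 2892 higher, 505 to 1639 lower) without single libraries. Genes higher in both assays numbered 258 with the minimum fold and 268 to 417 without single libraries, and genes lower in both 237 and 176 to 468. The cause was not tested beyond what leaving out a library or raising the threshold does by construction.

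Of 115 peaks named by rule, 113 were called and 62 of these kept their call without any 1 library. Over 15 settings these peaks gave 1566 values of the same direction and side of the threshold, 145 that lost the call and 5 that changed sign. All 5 belong to the *aldh1a2* intron peak with most counts, which was not called; its log2 fold change of -0.05 became 0.022 with the DESeq2 Wald test, 0.028 with DESeq2 size factors, 0.29 with the abundance trend removed, and lay between -0.27 and 0.28 with single libraries left out (0.22 without epicardium replicate 1, 0.28 without non-epicardium replicate 1). Without any fold threshold the smallest called log2 fold changes were 1.12 and -1.11; the parts of depth, group size and spread between libraries in this limit were not tested.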

Other observations

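Accessibility on chromosome 4 did not move alike with the reporters. Its 3425 tested peaks had a median log2 fold change of 0.36 with tcf21 and -0.57 with tbx18, and the effect was higher with tcf21 at 2.60% of them by the interaction test, against 1.1% of all peaks. Chromosome 4 held 8.28% and 8.61% of counts in tcf21 epicardium and 5.17% and 7.79% in tcf21 non-epicardium. With tbx18 its share of counts was nearly the same in both fractions, at 4.52% and 3.76% in epicardium and 4.58% and 3.73% in non-epicardium. Of its peaks 5.69% were called higher and 3.77% lower with tcf21.

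The peaks higher in larval tcf21 epicardium were less open in adult epicardium than in larval epicardium. Their median level was 25.7 and 33.0 CPM in larval tcf21 epicardium, 23.9 and 22.6 CPM in larval tbx18 epicardium, 9.68 to 11.5 CPM in the 4 adult libraries after cryoinjury and 12.3 and 11.6 CPM in the 2 adult sham libraries. The peaks lower in larval tcf21 epicardium had medians of 5.59 and 6.01 CPM in larval tcf21 epicardium and 10.9 and 10.3 CPM in larval tbx18 epicardium, against 8.19 to 9.47 CPM over the 6 adult libraries. The larval tcf21 values chose these peaks and are given as a description; age, transgene and batch differ between these groups and cannot be told apart.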
